A study of Mus musculus with 4 samples.

Results

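Neutrophil granulocytes fill their first granules, the primary or azurophil granules, while they are still promyelocytes in the marrow, and the genes for the cargo are then switched off. Later stages make secondary granules with other cargo, so that the set of granule transcripts in a cell tells how far it has matured. Monocyte progenitors use some of the same genes. The 6 genes described here were taken by symbol from the 31053 genes counted in bone tissue of mice, and each was found in 1 row. Elane (neutrophil elastase), Prtn3 (proteinase 3) and Ctsg (cathepsin G) are serine proteases. Mpo (myeloperoxidase), which makes hypochlorous acid from hydrogen peroxide, Fcnb (ficolin-B), a lectin that recognizes microbial sugars and starts complement, and Cst7 (cystatin F), an inhibitor of cysteine cathepsins, are not proteases, so the set is one of primary granule and accompanying genes.

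The data were 4 libraries, 1 per wild-type mouse, made from tibiae and femurs whose marrow had been flushed out with cold PBS before the bone was digested. Ctrl mice (n = 2) received no treatment and HLU mice (n = 2) were suspended by the tail for 28 days (hindlimb unloading). The deposited design speaks of postnatal day 28, and the age of these 4 animals is not settled by the sources used here. Although the marrow was flushed, the libraries held many blood cells, and their makeup differed: 4011, 3068, 102 and 135 barcodes in the Ctrl libraries (replicates 1 and 2) and then the HLU libraries (replicates 1 and 2) carried stromal transcripts, among 7340, 7635, 7757 and 9485 barcodes that passed (1000 to 40000 UMIs, unique molecular identifiers that count transcripts, and at most 10% mitochondrial UMIs). The library of HLU replicate 2 was the deepest, with 87604282 UMIs in these barcodes against 45347595 to 58763775 in the others, and it stood apart in several of the results below. Between 13 and 21 barcode sequences were shared by any pair of libraries, at most 0.275% of a library.

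The promoters of 5 of the genes are shown because the genes took different courses along the neutrophil line: Mpo and Ctsg fell at the first step, Elane and Prtn3 were not called at it, and Fcnb rose before it fell. Each sequence is the 250 bases before the RefSeq start (build GRCm38.p6, which is mm10), written 5′ to 3′ in the direction of the gene. Capitals mark the letters GAGGAA, a core to which the myeloid factor PU.1 can bind, and TTGCNNAA, a core for C/EBP factors, each searched on both strands (TTCCTC and TTNNGCAA). For Mpo, Elane, Prtn3 and Fcnb the RefSeq start is not the start of the GENCODE M21 gene.
Mpo (chr11:87793534-87793783, plus strand): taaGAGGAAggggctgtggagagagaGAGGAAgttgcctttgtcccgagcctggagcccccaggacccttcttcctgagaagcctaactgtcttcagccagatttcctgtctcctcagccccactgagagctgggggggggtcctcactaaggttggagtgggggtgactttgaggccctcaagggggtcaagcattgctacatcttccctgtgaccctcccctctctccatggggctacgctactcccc
Ctsg (chr14:56102575-56102824, minus strand): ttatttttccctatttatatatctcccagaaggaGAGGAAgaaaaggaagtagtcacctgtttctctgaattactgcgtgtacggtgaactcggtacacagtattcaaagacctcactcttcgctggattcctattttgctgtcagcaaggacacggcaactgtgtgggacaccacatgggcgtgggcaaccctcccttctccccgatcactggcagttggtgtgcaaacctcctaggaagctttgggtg
Elane (chr10:79886062-79886311, plus strand): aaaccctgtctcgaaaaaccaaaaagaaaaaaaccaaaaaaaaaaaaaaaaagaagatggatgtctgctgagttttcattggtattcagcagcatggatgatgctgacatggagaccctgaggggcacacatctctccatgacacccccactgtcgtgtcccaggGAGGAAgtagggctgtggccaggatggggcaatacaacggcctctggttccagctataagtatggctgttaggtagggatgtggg
Prtn3 (chr10:79879417-79879666, plus strand): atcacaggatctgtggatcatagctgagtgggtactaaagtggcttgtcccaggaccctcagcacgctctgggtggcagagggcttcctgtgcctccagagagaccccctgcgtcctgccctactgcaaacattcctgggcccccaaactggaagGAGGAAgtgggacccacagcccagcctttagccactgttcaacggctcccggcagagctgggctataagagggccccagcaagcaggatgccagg
Fcnb (chr2:28084879-28085128, minus strand): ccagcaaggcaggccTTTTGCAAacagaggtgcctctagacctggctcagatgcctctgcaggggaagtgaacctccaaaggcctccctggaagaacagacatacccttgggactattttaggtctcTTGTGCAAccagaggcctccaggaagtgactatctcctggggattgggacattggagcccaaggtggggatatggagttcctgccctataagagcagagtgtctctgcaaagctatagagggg

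GAGGAA was found in all 4 of the promoters of Mpo, Ctsg, Elane and Prtn3, at 2 places in Mpo, and in neither Fcnb nor Cst7. Of 27025 promoters of that length, 23.1% held it. TTGCNNAA or its reverse TTNNGCAA was found at 2 places in Fcnb, 235 and 123 bases before the start, and in no other of the 6, against 9.55% of all promoters. The letters AACNG, a core for MYB, occurred 1 to 3 times in each of the 6 promoters, as in 74.1% of all, and TGTGGT, a RUNX core, occurred at 1 place each in Ctsg and Cst7, against 14.2%. In Fcnb 1 of the AACNG matches shares 1 base with a TTNNGCAA match, and no other matches overlap in the 6 promoters. A match is a description of the letters and not of binding. Elane and Prtn3 lie next to each other: the annotation (GENCODE M21, mm10) puts Prtn3 (ENSMUSG00000057729) on chr10:79874476-79883174 and Elane (ENSMUSG00000020125) on chr10:79886247-79888215, both on the plus strand, 3072 bases apart with no protein-coding gene between them. The other genes are Mpo (ENSMUSG00000009350) on chr11:87793581-87804413, Ctsg (ENSMUSG00000040314) on chr14:56099881-56102574, Fcnb (ENSMUSG00000026835) on chr2:28076378-28084885 and Cst7 (ENSMUSG00000068129) on chr2:150570415-150578944. Prtn3 overlaps Plppr3 and Mpo overlaps Gm11505 in that annotation, so reads in the overlaps could have been lost or shared. Values below are UMIs of whole genes, counted at the 3′ end, and a level is the gene's share of the UMIs of a gate in CPM, where 10000 CPM are 1% of the UMIs, compared between cells for 1 gene and not between genes.

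Stages were set by transcripts other than the 6 genes. A barcode was placed in the granulocyte progenitor gate when transcripts of Kit, Cd34, Flt3, Myb, Sox4, Cdk6 and Ms4a3 made up at least 0.05% of its UMIs and secondary granule, mature neutrophil, monocyte and other lineage transcripts stayed under their thresholds. The late progenitor gate added secondary granule transcripts (Ltf, Camp, Ngp, Lcn2, Itgb2l) at 1% or more. Immature neutrophils had the secondary granule transcripts without the progenitor transcripts and were split by division transcripts. Mature neutrophils carried Cxcr2, Csf3r, Retnlg, Mmp8 and Mmp9 at 0.3% or more, and the secondary granule list did not count as reached. Monocyte progenitors carried progenitor and monocyte transcripts, and monocytes the monocyte transcripts alone. A list counted as reached only with at least 3 UMIs from at least 2 of its genes. Barcodes over 1% through 1 secondary granule gene alone could thus enter the mature gate. Counted in the Ctrl libraries (replicates 1 and 2) and then the HLU libraries (replicates 1 and 2), the gates held 81, 115, 168 and 368 granulocyte progenitors, 51, 61, 130 and 403 late progenitors, 146, 228, 439 and 612 dividing and 1000, 1548, 2660 and 4034 non-dividing immature neutrophils, 931, 1110, 2227 and 509 mature neutrophils, 12, 20, 25 and 72 monocyte progenitors and 207, 289, 363 and 1068 monocytes. The gates are named after their transcripts, and the progenitor list can also take in progenitors of other lines. Median depth in granulocyte progenitors was 11031, 14653, 11875 and 23969.5 UMIs. Macrophage-gated barcodes were too few (4, 11, 1 and 42) for a comparison.

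Of the 5 granulocyte gates, the granulocyte progenitors held the highest level of Elane, Prtn3, Mpo, Ctsg and Cst7 in each of the 4 libraries, and levels dropped steeply once progenitor transcripts were gone. Elane was at 6754, 6799.6, 5658 and 6575 CPM in the Ctrl libraries (replicates 1 and 2) and then the HLU libraries (replicates 1 and 2), the order kept in the values that follow. In the late progenitors it stood at 5621, 5517, 3178 and 3621 CPM. The CPM were thus lower in late progenitors in each library, and the Ctrl libraries were the higher ones there. The fits apply edgeR's TMM scaling factors and the CPM do not, so a fitted change can differ from the change in CPM. The step between the gates, -0.20 ± 0.11 (SE), adjusted p = 0.213 with edgeR, was not called. That depended on the gates: with all thresholds at a lower setting Elane fell at this step (-0.50 ± 0.12 (SE), adjusted p = 0.00540 with edgeR), and with a higher setting its difference was 0.20 ± 0.12. It was at 139, 359.7, 223 and 93.7 CPM in dividing immature neutrophils and 12.5, 15.4, 23.8 and 80.6 CPM in mature ones. Every library dropped at the step into dividing immature neutrophils, where Elane fell by 4.60 ± 0.24 on the log2 scale (SE, edgeR quasi-likelihood test, adjusted p = 6.31e-09).

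Prtn3, the neighbour of Elane on chromosome 10, followed a like course. Its level was 4847, 4439, 3825 and 4421 CPM in granulocyte progenitors and 3918, 3961, 2802 and 2583 CPM in late progenitors, lower in CPM in each library. The fitted step, with the scaling factors, was -0.05 ± 0.10 (SE), adjusted p = 0.741 with edgeR, and was not called. Prtn3 did fall with the lower thresholds (-0.27 ± 0.10 (SE), adjusted p = 0.0424 with edgeR) and differed by 0.25 ± 0.11 with the higher ones. In dividing immature neutrophils it was 343, 454, 307 and 175 CPM. At that step Prtn3 fell by 3.45 ± 0.14 on the log2 scale (SE, edgeR quasi-likelihood test, adjusted p = 8.14e-10), in 4 of 4 libraries. It remained at 291, 332, 258 and 116 CPM in non-dividing immature neutrophils and at 15.1, 18.9, 29.4 and 58.2 CPM in mature neutrophils, and the last of these steps was a fall by 3.19 ± 0.46 on the log2 scale (SE, edgeR quasi-likelihood test, adjusted p = 3.63e-04).

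Mpo and Ctsg were already lower in late progenitors. Mpo stood at 1171, 1749, 1833 and 1922 CPM in granulocyte progenitors and at 226, 763, 369.7 and 368 CPM in late progenitors, lower in each library. It fell by 1.69 ± 0.16 on the log2 scale (SE, edgeR quasi-likelihood test, adjusted p = 1.07e-06). Ctsg stood at 1302, 2082, 1412 and 5780.0 CPM and then at 293, 574, 311 and 1069.8 CPM, with HLU replicate 2 the highest in both gates. It fell by 1.80 ± 0.11 on the log2 scale (SE, edgeR quasi-likelihood test, adjusted p = 6.81e-09). The call for Ctsg was lost without the library term in the model (adjusted p = 0.0629). By the dividing immature stage Mpo was at 3.42, 11.0, 18.1 and 7.74 CPM (6, 31, 89 and 69 UMIs), at most 18.1, and Ctsg at 17.1, 21.3, 27.3 and 19.0 CPM, after falls by 5.32 ± 0.24 on the log2 scale (SE, edgeR quasi-likelihood test, adjusted p = 1.23e-09) for Mpo and by 4.61 ± 0.25 on the log2 scale (SE, edgeR quasi-likelihood test, adjusted p = 6.79e-09) for Ctsg.

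Fcnb, the ficolin, took another course. It was at 170.2, 134, 159 and 499.7 CPM in granulocyte progenitors, rose to 461, 663, 544 and 1866 CPM in late progenitors, and was still at 148, 282, 190.3 and 807 CPM in dividing and 133, 165, 117 and 317 CPM in non-dividing immature neutrophils. In each of the 4 libraries the late progenitors held the highest level. The rise was 2.23 ± 0.13 (SE), adjusted p = 2.43e-09 with edgeR, and the next step was a fall by 1.40 ± 0.15 on the log2 scale (SE, edgeR quasi-likelihood test, adjusted p = 3.36e-06). In mature neutrophils 2, 3, 16 and 65 UMIs were counted, most of them in HLU replicate 2. Between 22.0% and 46.5% of a library's Fcnb UMIs lay in the large gate of non-dividing immature neutrophils, against 1.76% to 5.24% of its Mpo UMIs. Conversely, the granulocyte and late progenitors together held 70.6, 71.9, 69.1 and 85.5% of the Mpo UMIs and 27.1, 24.8, 30.2 and 55.4% of the Fcnb UMIs.

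Cst7, whose product restrains cathepsin C, the protease that activates the granule serine proteases, had values of 200.1, 224, 232 and 378 CPM in granulocyte progenitors and 122, 176, 189 and 226 CPM in late progenitors. The CPM were lower in each library, and the fitted difference of -0.16 ± 0.12 (SE), adjusted p = 0.354 with edgeR, was not called. In dividing immature neutrophils the level was 10.8, 16.3, 17.9 and 22.1 CPM, and Cst7 fell by 3.37 ± 0.15 on the log2 scale (SE, edgeR quasi-likelihood test, adjusted p = 1.09e-09). Like Elane and Prtn3 it was not called at the first step, where Mpo and Ctsg were, and the difference between the genes was not tested.

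Among all genes, 27.9% were called between granulocyte and late progenitors, where 3 of the 6 genes were, and 21.5% were called lower at the step into dividing immature neutrophils, where all 6 were. At the step from dividing to non-dividing immature neutrophils, with 53.6% of genes called (28.8% higher and 24.7% lower), 2 of the 6 passed: Fcnb fell by 0.60 ± 0.14 on the log2 scale (SE, edgeR quasi-likelihood test, adjusted p = 0.00461), and Mpo was higher by 1.01 ± 0.19 (SE), adjusted p = 0.00157 with edgeR, from a few CPM in the dividing cells to 12, 21.8, 23.0 and 15.0 CPM. Neither was called when the library was left out of the model, where 2190 of 9589 genes were called in all. Without HLU replicate 2, 4 of the 6 genes were called, and 5001 of 9248 in all. Barcodes that should not make the protein held 3.20, 15.1, 45.9 and 32.5 CPM of Mpo (stromal) and 4.88, 4.61, 21.5 and 6.14 CPM (B cell transcripts), so that Mpo in non-dividing immature neutrophils was above both in the Ctrl libraries and below the stromal level in the HLU libraries. In the fit of mature against non-dividing immature neutrophils the 6 genes were all called lower, as were 27.2% of all genes (53.5% in either direction). The changes ran from -1.08 ± 0.24 for Mpo to -4.92 ± 0.48 for Fcnb (log2, SE, edgeR, adjusted p between 4.63e-05 and 0.0145). Ctsg in HLU replicate 2 did not fall, with 29.7 CPM in non-dividing immature and 35.8 CPM in mature neutrophils. The mature gate held few UMIs of these genes, for example 7, 23, 46 and 64 of Ctsg. Elane in mature neutrophils, at 12.5, 15.4, 23.8 and 80.6 CPM, lay below the stromal barcodes in each library (17.4, 45.8, 31.7 and 124 CPM). Barcodes of B cell transcripts held 8.13, 13.8, 96.0 and 14.6 CPM of Elane, less than the mature neutrophils in 3 of the 4 libraries. How much of the level is free RNA was not tested.

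**Figure D1:**
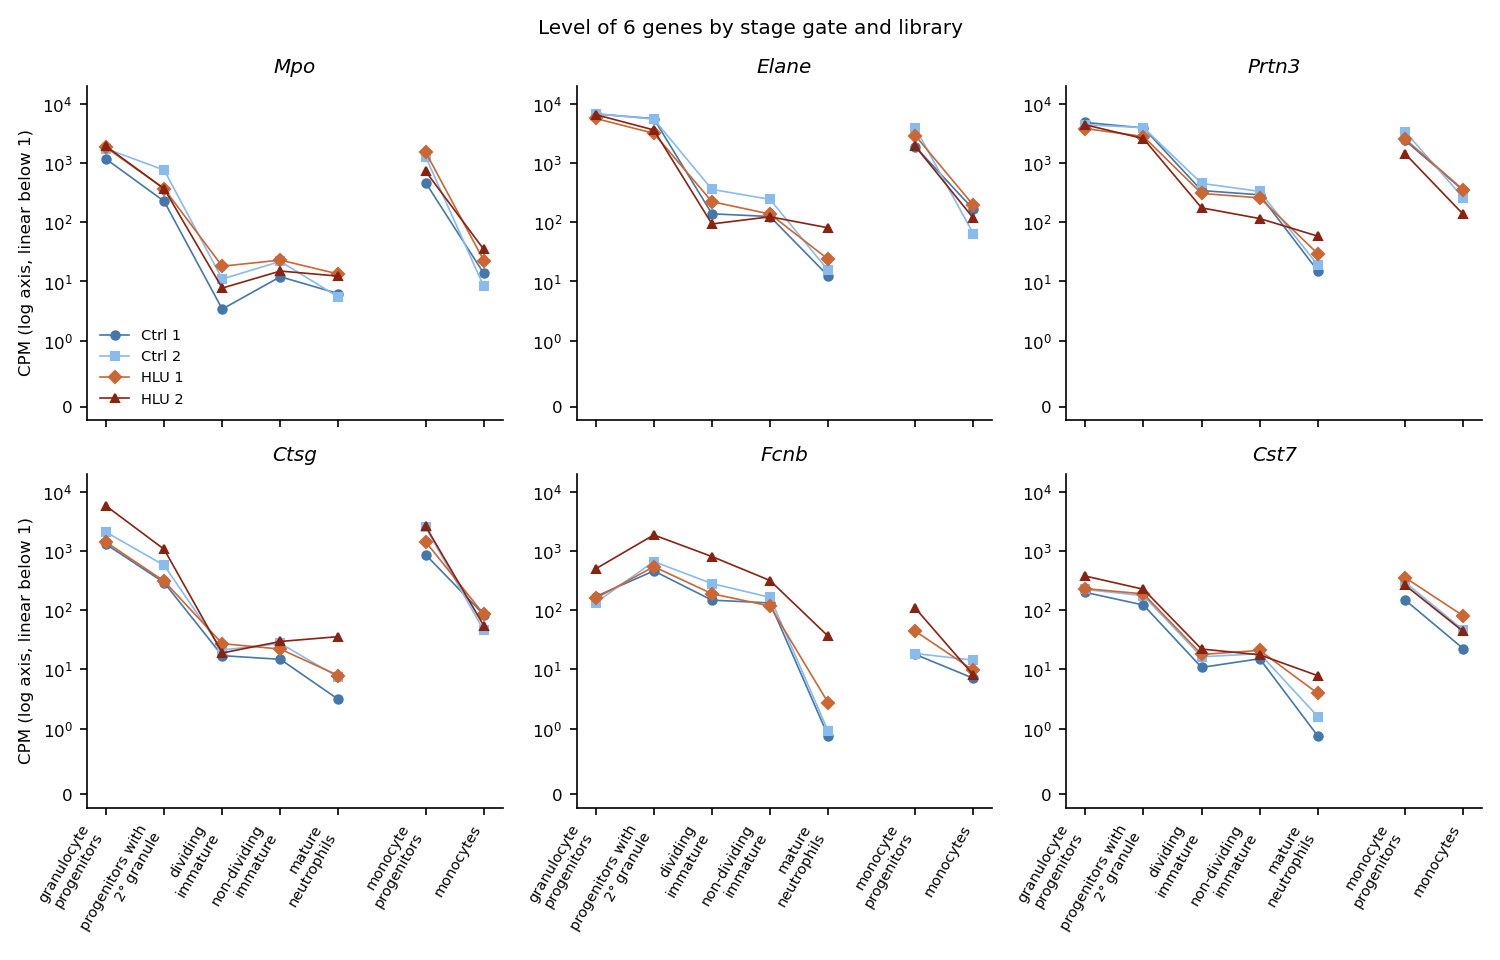
Level of each gene (CPM, on a log axis that is linear below 1) in 7 stage gates, with 1 line per library (circles and squares Ctrl, diamonds and triangles HLU), the 5 granulocyte gates at the left of each panel and the monocyte gates at the right. Mpo, Ctsg, Elane, Prtn3 and Cst7 drop by the dividing immature stage, and Fcnb is highest in late progenitors (progenitors with secondary granule transcripts) in every library.

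**Figure D2:**
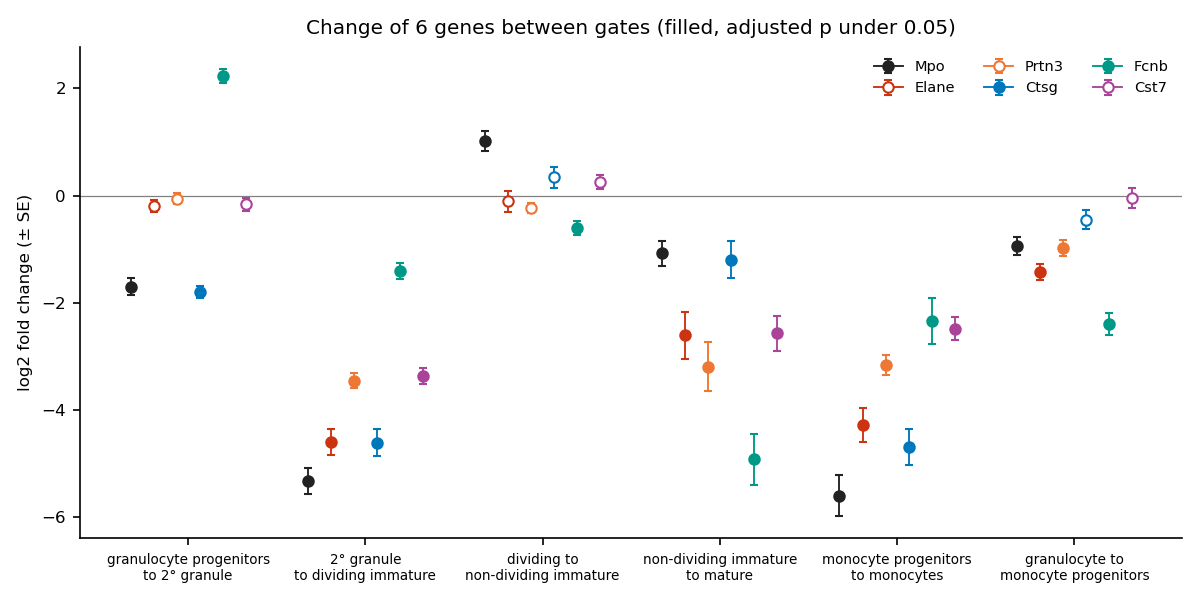
Log2 fold change between gates (points, edgeR's quasi-likelihood fit with the library as a term, 4 libraries in each gate), coloured by gene. Bars are ± SE, computed from the change and the test's F statistic. Filled points mark an adjusted p under 0.05. The first step separates Fcnb (2.23) from Mpo (-1.69) and Ctsg (-1.80), and all 6 are below 0 at the second.

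In non-dividing immature neutrophils most UMIs of Elane and Prtn3 lay in a minority of barcodes. In that gate the median barcode had 0 UMIs of Elane in every library, whereas barcodes with 10 or more, 1.90, 1.81, 1.69 and 1.39% of the gate, held 75.5, 85.5, 66.6 and 83.5% of its Elane UMIs. These were 19, 28, 45 and 56 barcodes, and 12, 22, 36 and 51 of them carried progenitor transcripts at 0.025% or more of their UMIs, which is the lower setting of that threshold. For Prtn3 they were 5.40, 4.65, 4.36 and 1.78% of the gate and held 72.2, 78.6, 69.7 and 75.2% of its UMIs. For Fcnb, barcodes with 10 or more UMIs made up 3.42, 10.5, 4.78 and 34.8% of the dividing immature gate and held 25.0, 47.2, 35.4 and 89.0% of its Fcnb UMIs. Most Fcnb UMIs of the dividing gate thus lay outside such barcodes in 3 of the 4 libraries, and inside them in HLU replicate 2. In non-dividing immature neutrophils the share of Fcnb UMIs held ran from 36.6% to 86.0%. Most lay inside such barcodes there in Ctrl replicate 2 (51.7%) and HLU replicate 2 (86.0%), and outside them in the other libraries. The shares held in non-dividing immature neutrophils were low for Mpo (15.9, 30.7, 11.4 and 35.6%) and Cst7 (0, 8.12, 3.53 and 4.72%). A cut of 10 UMIs is rarely reached by a gene at a low level. The largest count of Cst7 in a barcode of that gate was 8, 13, 11 and 22 UMIs. These shares therefore cannot tell how differently the genes were spread over barcodes.

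Within the granulocyte progenitor gate the genes were present together. Barcodes with UMIs of at least 5 of the 6 genes made up 63.0, 63.5, 65.5 and 83.2% of the gate, and 54.9, 65.6, 63.8 and 82.9% of the late progenitors. In contrast, 18.5, 13, 13.1 and 7.61% of the granulocyte progenitors had no UMI of any of them. Across the barcodes of 1 library, Elane and Prtn3 were correlated at r = 0.92 to 0.94 and Mpo and Ctsg at 0.76 to 0.89 (Pearson, log scale of depth-scaled UMIs, range over 4 libraries). For Fcnb the range was 0.18 to 0.39 with Mpo, 0.27 to 0.45 with Ctsg and 0.40 to 0.51 with Cst7. It was 0.42 to 0.55 with Elane and 0.41 to 0.55 with Prtn3. Among the late progenitors Fcnb and Ctsg had correlations of -0.31 to 0.31, Fcnb and Prtn3 of -0.01 to 0.34, and Elane and Prtn3 of 0.79 to 0.89. These coefficients describe barcodes that share a library, its depth and its free RNA, and carry no test.

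**Figure D3:**
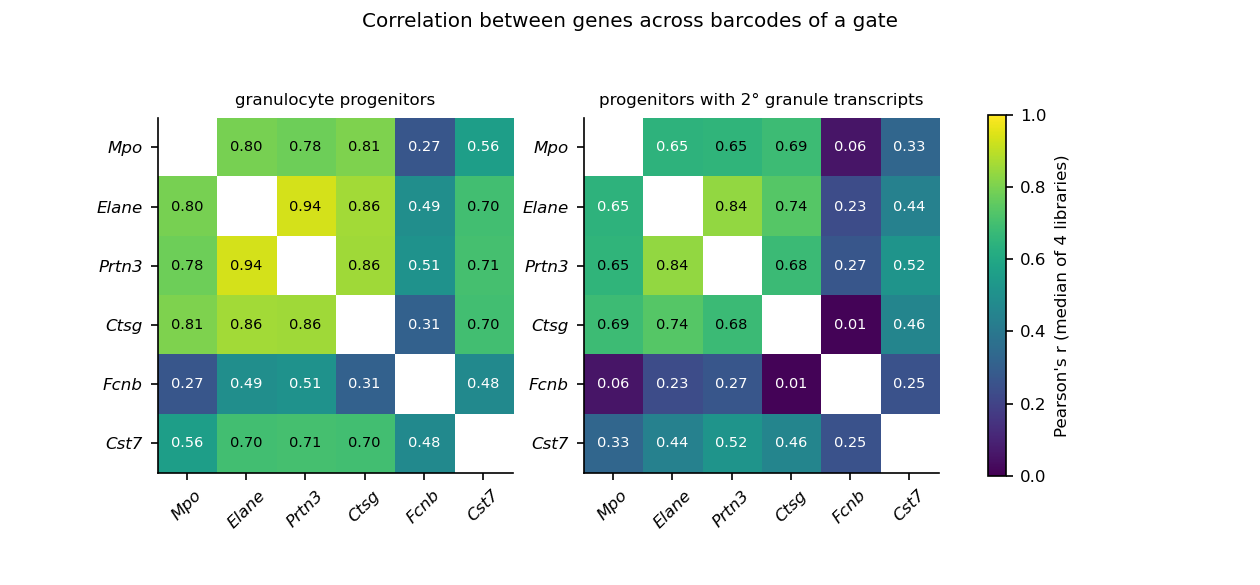
Pearson correlation between genes across the barcodes of granulocyte progenitors (left) and late progenitors (right), each cell being the median of 4 libraries on a colour scale from 0 to 1. The 4 classical granule genes form a block with medians from 0.78 to 0.94 at the left, and Fcnb stands outside it.

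To compare shares of barcodes at 1 depth, each barcode was thinned to 1000 UMIs. In granulocyte progenitors a UMI of Elane then remained in 66.7, 62.6, 72.6 and 84.2% of barcodes, one of Prtn3 in 71.6, 71.3, 76.2 and 83.4%, one of Mpo in 34.6, 49.6, 44.6 and 63.3% and one of Cst7 in 12.3, 20.0, 25.0 and 35.3%. In stromal barcodes the share for Elane was 1.57, 3.32, 11.8 and 2.96%, of which the HLU values rest on 102 and 135 barcodes. Without thinning the shares in granulocyte progenitors were 72.8, 72.2, 79.2 and 88.3% for Elane, 80.2, 84.3, 85.7 and 89.1% for Prtn3, 71.6, 67.8, 70.2 and 88% for Mpo and 64.2, 70.4, 69.6 and 85.3% for Cst7, at the depths given above.

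Monocyte progenitors carried the granule transcripts too. Elane was at 1888, 3928, 2911 and 1920.3 CPM and Prtn3 at 2420.2, 3409, 2558 and 1442 CPM. Putative doublets, which were kept here, made up 0, 0, 0 and 16 of the gate's 12, 20, 25 and 72 barcodes. In HLU replicate 2, 14 of the 47 barcodes with 10 or more Elane UMIs were putative doublets. Against granulocyte progenitors of the same libraries, 4 of the 6 were lower: -2.40 ± 0.21 for Fcnb (3, 7, 19 and 198 UMIs), -1.42 ± 0.15 for Elane, -0.98 ± 0.15 for Prtn3 and -0.93 ± 0.17 for Mpo (log2, SE, edgeR, adjusted p from 3.64e-06 to 0.00390), where 3.70% of all genes were called, 1.66% lower and 2.04% higher. Ctsg (866, 2505, 1429.7 and 2621 CPM) and Cst7 (149, 297, 357 and 266 CPM) were not called, with differences of -0.44 ± 0.17 (SE), adjusted p = 0.227 with edgeR, and -0.04 ± 0.19 (SE), adjusted p = 0.992 with edgeR. None of the 4 calls was made without the library term in the model, where 37 of 8132 genes were called in all.

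All 6 genes fell from monocyte progenitors to monocytes, a step at which 12.3% of genes were called lower. Mpo went from 466, 1278, 1525 and 726 CPM to 13.7, 8.28, 22.6 and 34.8 CPM, a fall by 5.60 ± 0.38 on the log2 scale (SE, edgeR quasi-likelihood test, adjusted p = 2.73e-08). Prtn3 was still at 347, 260.0, 354 and 137 CPM in monocytes, after a fall by 3.16 ± 0.19 on the log2 scale (SE, edgeR quasi-likelihood test, adjusted p = 7.95e-09). Barcodes with 10 or more Prtn3 UMIs were 8.21, 10.7, 13.2 and 7.12% of the monocytes and held 75.9, 82.2, 83.7 and 70.2% of the gate's Prtn3 UMIs. Outside the granulocyte and monocyte lines, the small gate of basophil and mast cell transcripts (10, 15, 36 and 61 barcodes) held Ctsg at 786, 616, 361 and 1499 CPM and Mpo at 309, 388, 107 and 365 CPM, while Fcnb had 0, 1, 0 and 7 UMIs there. Few barcodes carried the Mpo: 1, 1, 2 and 6 barcodes with 10 or more UMIs held 62.5, 100, 79.3 and 77% of it. For Ctsg, 2, 1, 2 and 21 such barcodes held 91.8, 56.5, 54.1 and 90.1% of its UMIs in this gate. Of the 21 in HLU replicate 2, 7 were putative doublets.

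A list of 32 other genes of the pathway (further granule proteins, inhibitors, transcription factors, partner proteins and other ficolin pathway genes) was followed in the same fits. Between granulocyte and late progenitors 15 of the 27 tested rose and 4 fell (14.8% and 13.1% of all genes). The largest rises were Cd177 (4.52 ± 0.17, adjusted p = 1.04e-11), whose product holds proteinase 3 on the cell surface, Padi4 (2.67 ± 0.21, adjusted p = 1.57e-07), the histone deiminase of neutrophil traps, and Lyz2 (1.97 ± 0.13, adjusted p = 2.77e-08), lysozyme. The falls were led by Slpi (-1.13 ± 0.11, adjusted p = 9.88e-07), an inhibitor of elastase and cathepsin G, Srgn (-0.85 ± 0.09, adjusted p = 3.61e-06), the proteoglycan core that packs granule proteins, and Myb, a gene of the progenitor gate itself. At the step into dividing immature neutrophils 7 rose and 8 fell of 26 (20.8% and 21.5% of all genes). Cd177, Padi4 and Cbfb had the largest rises, and Cebpa (-1.98 ± 0.24, adjusted p = 1.42e-05), Prss57 (-1.95 ± 0.16, adjusted p = 5.45e-07), a further granule serine protease, and Myb the largest falls.

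Between dividing and non-dividing immature neutrophils 28.8% of all genes rose and 24.7% fell. Of the list, 13 of 28 rose, led by Srgn (2.10 ± 0.14, adjusted p = 2.14e-06), Ctsc (1.82 ± 0.16, adjusted p = 1.85e-05), cathepsin C, and Cebpa (1.52 ± 0.26, adjusted p = 9.54e-04), and 5 fell, led by Prss57, Gfi1 (-1.19 ± 0.14, adjusted p = 1.01e-04) and Cebpe (-0.75 ± 0.10, adjusted p = 1.93e-04). Ctsc, which activates the proteases, rose at a stage where Elane, Prtn3 and Ctsg were not called. In mature neutrophils 8 were higher and 12 lower of 28 (26.3% and 27.2% of all genes), with Cebpe (-4.02 ± 0.17, adjusted p = 8.46e-07), Prss57 and Serpinb1a (-2.94 ± 0.13, adjusted p = 1.01e-06), the inhibitor of neutrophil serine proteases, lowest and Irf8 (1.15 ± 0.38, adjusted p = 0.0283), Srgn and Ctsl (0.73 ± 0.16, adjusted p = 0.00370) highest. Monocyte progenitors differed from granulocyte progenitors by 5 rises, against 2.04% of all genes, led by Irf8 (3.78 ± 0.24, adjusted p = 2.10e-07), a factor of the monocyte line, Ctsc and Lyz2, and 6 falls of 27, against 1.66%, led by Cebpe (-2.84 ± 0.22, adjusted p = 1.96e-06), Prss57 (-2.34 ± 0.26, adjusted p = 4.12e-05) and Serpinb1a. From monocyte progenitors to monocytes 7 rose (largest Ctsl (2.09 ± 0.21, adjusted p = 2.06e-06), Ctsc and Ctsh) and 7 fell (Myb, Prss57 and Gfi1) of 26, against 13.2% and 12.3% of all genes. These adjusted p-values are from edgeR, changes are log2 ± SE, and the list's overlap with the gates is Myb alone.

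Over the 7 stage gates of the 4 libraries (28 points, which share libraries and depth), the genes most like each member were compared by Pearson's r of log2(CPM + 1), among 5029 others with at least 50 CPM in 1 point. Elane and Prtn3 were each other's closest match (r = 0.98). Nkg7 was second for both, at 0.96 and 0.96, followed by Cmtm7, Ms4a3 and Svip for Elane and by Plac8, Lamtor2 and Tm7sf3 for Prtn3. Mpo was closest to Ctsg (0.96), then to Kit, Elane, Cdk6 and Myb, and Ctsg to Kit (0.96), Mpo, Dctpp1, Phgdh and Cdk6. Kit, Cdk6, Myb and Ms4a3 belong to the progenitor list of the gates. Fcnb had none of the 6 among its matches, which were Dstn (0.91), Prom1, Plscr1, Hmgn2 and Ffar2. Its r with the other genes of the set ran from 0.36 for Mpo to 0.60 for Prtn3. Cst7 was closest to Rnaset2b (0.96), with Rps12, Rps23, Ctsg and Rps18 next.

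The design compares HLU with Ctrl mice. Within a stage, 0 of the 6 genes were called in each of the 7 gates (edgeR quasi-likelihood test, 2 against 2 libraries, with Fcnb left out of the mature neutrophils by the filter on low counts). The share of all genes called was 0.0328% in granulocyte progenitors, 0.168% in late progenitors, 0.400% and 0.945% in dividing and non-dividing immature neutrophils, 1.02% in mature neutrophils, 0.0825% in monocyte progenitors and 0.260% in monocytes. Of the 41 tests of the 6 genes, 9 (22.0%) had an unadjusted p under 0.05, as had 7.47% of the tests of all genes, and DESeq2 called 0. Of the pathway genes listed above, 24 to 28 of 32 were tested in a gate and 0 were called. A p that misses the threshold with 2 libraries a group does not show that levels were equal. The outcome turned on HLU replicate 1. Without it, HLU replicate 2 stood alone against the Ctrl libraries and was taken to vary like them. Then 3 of the 6 genes were called in granulocyte progenitors (Ctsg, Fcnb and Cst7 higher), where 25.9% of all genes were called. In late progenitors 4 were called (Fcnb and Ctsg higher, Elane and Prtn3 lower) against 16.7% of all genes, in dividing and non-dividing immature neutrophils 3 each (20.4% and 36.2%), in mature neutrophils all 6 (34.2%), and 2 each in monocyte progenitors (10.8%) and monocytes (35.2%). Without HLU replicate 2, 1 call was made, a rise of Cst7 in monocytes (1.14 ± 0.29 (SE), adjusted p = 0.0341 with edgeR), where 4.56% of all genes were called.

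Elane and Prtn3 were lower in the late progenitors of both HLU libraries. Elane was at 5621 and 5517 CPM in the Ctrl and 3178 and 3621 CPM in the HLU libraries, -0.97 ± 0.28 (SE), adjusted p = 0.795 with edgeR (unadjusted p = 0.00973). Prtn3 was at 3918 and 3961 CPM against 2802 and 2583 CPM, -0.80 ± 0.29 (SE), adjusted p = 0.795 with edgeR. Without HLU replicate 2 the difference was -1.04 ± 0.31 for Elane and -0.72 ± 0.31 for Prtn3. The groups did not overlap for these 2 genes, lower in HLU, and for Cst7, higher in HLU, while 7.99% of all genes lay lower and 34.2% higher without overlap in this gate. In granulocyte progenitors the same 2 proteases were lower without overlap (12.3% of all genes), at -0.27 ± 0.23 for Elane and -0.30 ± 0.24 for Prtn3, with Mpo and Cst7 higher without overlap (26.9%, which makes 39.2% in both directions). Prtn3 also lay lower without overlap in dividing (343, 454, 307 and 175 CPM) and non-dividing (291, 332, 258 and 116 CPM) immature neutrophils, as did 14.1% and 20.4% of all genes. Cst7 lay higher in the dividing ones, where 39.5% of genes did not overlap in either direction. The differences of Prtn3 were -0.78 ± 0.33 (SE), adjusted p = 0.604 with edgeR, and -0.70 ± 0.36 (SE), adjusted p = 0.521 with edgeR.

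Ctsg and Fcnb were high in 1 of the 2 HLU libraries. In granulocyte progenitors HLU replicate 2 stood 2.78-fold above the highest of the other 3 libraries for Ctsg (1302, 2082, 1412 and 5780.0 CPM) and 2.94-fold for Fcnb (170.2, 134, 159 and 499.7 CPM), while HLU replicate 1 lay between the 2 Ctrl libraries in both. Of all genes tested in this gate, 7% stood at least 2-fold above the other 3 libraries in HLU replicate 2. Fcnb was 2.81-fold above them in late progenitors and 2.86-fold in dividing immature neutrophils (6.64% and 2.28% of genes). The group difference in granulocyte progenitors was 0.96 ± 0.62 (SE), adjusted p = 0.830 with edgeR for Ctsg and 0.98 ± 0.54 (SE), adjusted p = 0.830 with edgeR for Fcnb. It became -0.36 ± 0.24 and -0.03 ± 0.25 without HLU replicate 2.

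The share of barcodes with these transcripts was higher in HLU replicate 2 as well. At 1000 UMIs a barcode, Ctsg was seen in 82.1% (95% interval 77.8 to 85.8) of its granulocyte progenitors, and in 54.3% (95% interval 42.9 to 65.4), 59.1% (95% interval 49.6 to 68.2) and 49.4% (95% interval 41.6 to 57.2) of those of both Ctrl libraries and of HLU replicate 1, in that order (Clopper-Pearson, counting error only). Fcnb was seen in 78.2% (95% interval 73.8 to 82.1) of its late progenitors, against 19.6, 47.5 and 40.0% in the other 3 libraries. The progenitors of this library were also the deepest, at 23969.5 UMIs at the median against 11031 to 14653, and its progenitor list stood at 0.199% of the gate's UMIs against 0.133% to 0.155%. Whether these differences have a part in the levels was not tested. With putative doublets and haemoglobin-rich barcodes removed the difference in granulocyte progenitors was 0.90 ± 0.61 for Ctsg and 0.92 ± 0.55 for Fcnb.

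**Figure D4:**
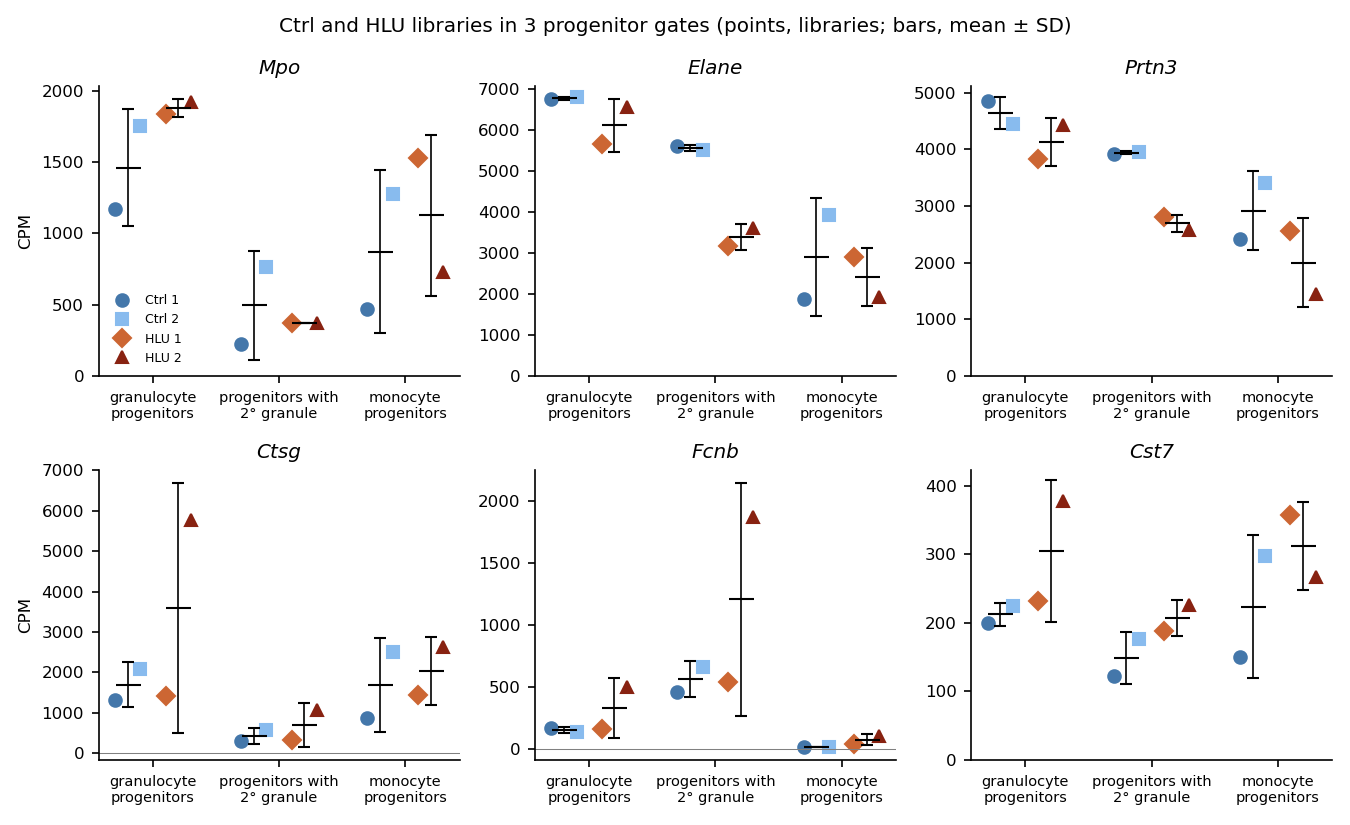
CPM of each gene in granulocyte progenitors, late progenitors and monocyte progenitors, with 1 point per library and bars for the mean ± SD of 2 libraries. Elane and Prtn3 lie lower in both HLU libraries among late progenitors, and HLU replicate 2 (triangles) lies apart for Ctsg among granulocyte progenitors and for Fcnb among granulocyte and late progenitors.

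In mature neutrophils the 6 genes were higher in both HLU libraries than in both Ctrl libraries, where 17.7% of all genes were. The counts were small. Elane had 28, 48, 139 and 144 UMIs, or 12.5, 15.4, 23.8 and 80.6 CPM, and Mpo 14, 17, 78 and 22 UMIs. HLU replicate 2 stood apart here too: it was 3.39-fold above the highest of the other 3 libraries for Elane, 4.55-fold for Ctsg and 13.3-fold for Fcnb, and 3.92% of the genes tested were at least 2-fold above. Its mature gate also held the most secondary granule transcripts, 1.31% of UMIs against 0.428% to 0.495%. The 1% threshold was not met by 1 gene of that list alone, so barcodes above it through 1 gene stayed in the gate. The part of these transcripts in the result was not tested. The fitted differences of the 5 genes tested ran from 1.24 ± 0.40 for Mpo to 2.19 ± 0.76 for Cst7, with adjusted p from 0.502 to 0.690 in edgeR. Fcnb had 2, 3, 16 and 65 UMIs. Among the 4011, 3068, 102 and 135 stromal barcodes, 290, 255, 0 and 25 were putative doublets, which were kept. The stromal barcodes of the same libraries, which should not make these proteins, held 2.28 and 6.43 CPM of Fcnb in Ctrl and 10.9 and 64.5 CPM in HLU, without overlap. Of Mpo they held 3.20 and 15.1 against 45.9 and 32.5 CPM. For Elane they overlapped, at 17.4 and 45.8 against 31.7 and 124 CPM. Their part in the result was not tested.

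In monocyte progenitors, Fcnb had 3, 7, 19 and 198 UMIs in 12, 20, 25 and 72 barcodes, 1.96 ± 0.62 (SE), adjusted p = 0.879 with edgeR, and the groups did not overlap (24.9% of all genes lay higher). The median barcode had 0 Fcnb UMIs in each library. Barcodes with 10 or more numbered 0, 0, 1 and 7 and held 0, 0, 52.6 and 84.8% of the Fcnb UMIs. Of the 7 in HLU replicate 2, 3 were putative doublets. Mpo in monocytes was at 13.7, 8.28, 22.6 and 34.8 CPM, 1.38 ± 0.43 (SE), adjusted p = 0.404 with edgeR, without overlap as for 23.8% of genes. The HLU effect in monocyte progenitors minus that in granulocyte progenitors, tested as an interaction, was called for 0 of the 6 genes against 0.131% of all genes (0.0218% lower). It ranged from -0.46 ± 0.33 for Ctsg to 0.87 ± 0.46 for Fcnb (adjusted p from 0.797 to 1 in edgeR). With all libraries, 0 of the 6 had an unadjusted p under 0.05. Without HLU replicate 1 the interaction was -0.93 ± 0.23 for Prtn3 and -1.01 ± 0.25 for Ctsg.

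Over whole libraries the 6 genes were all higher in HLU, without overlap, as were 28.6% of the genes that pass edgeR's filter. Elane was at 244, 417, 567 and 1148 CPM of all passing barcodes and Mpo at 32.0, 89.8, 144 and 257 CPM. The ratio of the group means ran from 2.35 for Prtn3 (675 ± 214 against 287 ± 83.6 CPM, SD, n = 2) to 6.09 for Fcnb (264 ± 242 against 43.3 ± 20.1 CPM). Each had a two-sided exact permutation p of 0.3333, the smallest that 2 against 2 libraries allow. The makeup of the libraries differed as well, and its part in these totals was not tested. Granulocyte and late progenitors were 1.80, 2.31, 3.84 and 8.13% of all passing barcodes, and the stromal barcodes numbered 4011 and 3068 in the Ctrl and 102 and 135 in the HLU libraries. In a whole library more cells of a type and more RNA per cell cannot be told apart.

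Within the granulocyte line alone the early share did not separate the groups. Granulocyte and late progenitors together made up 5.98% (95% interval 5.02 to 7.05) and 5.75% (4.95 to 6.63) of the granulocyte-line barcodes of the Ctrl libraries. HLU replicate 1 had 5.30% (4.73 to 5.92) and HLU replicate 2 had 13% (12.2 to 13.9). The mean was 9.15 ± 5.45% in HLU and 5.86 ± 0.161% in Ctrl (SD, n = 2 each, two-sided exact permutation p = 1), and without HLU replicate 2 the difference between HLU and Ctrl was -0.563 percentage points. Monocyte progenitors were 5.48, 6.47, 6.44 and 6.32% of the monocyte progenitors and monocytes (exact permutation p = 1). That share depended on the thresholds: the means were 0.688% in Ctrl and 1.73% in HLU with thresholds doubled and 16.3% and 18.2% with thresholds halved, and with the doublet and haemoglobin filters HLU minus Ctrl was -0.429 percentage points. With thresholds doubled the shares rest on 1, 3, 9 and 11 monocyte progenitors.

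**Figure D5:**
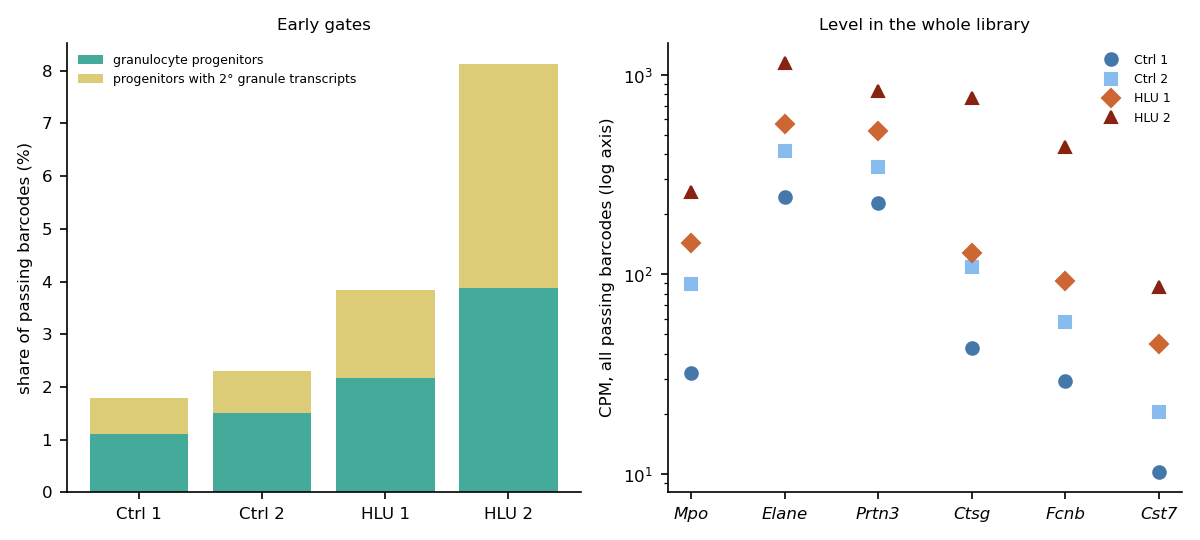
Share of passing barcodes in the granulocyte and late progenitor gates per library (left, stacked bars in percent) and CPM of the 6 genes over all passing barcodes (right, log axis, 1 point per library). Both order the libraries alike, from Ctrl replicate 1 to HLU replicate 2, in all 6 genes.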

How the data were processed

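Single-cell RNA-seq was done on 4 bone libraries (10x Genomics 3′ v3.1, NovaSeq). Per the labels and the study's methods, the authors aligned and counted the reads with Cell Ranger 6.0.0 against mm10 and used Seurat 4.1.0. The deposited matrices hold whole-number UMI counts per gene and barcode, not normalized, and no table of cell types was used here. They hold 10000 to 10003 barcodes a library. Barcodes with 1000 to 40000 UMIs and at most 10% mitochondrial UMIs were kept. Putative doublets (Scrublet, in scanpy 1.11.5) and barcodes with over 0.2% haemoglobin UMIs were kept in the main counts and removed in an alternative. The 4 libraries differed from each other by far more than sampling noise (chi-square per degree of freedom of at least 102 for each pair), so each was counted as 1 sample.

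Stage gates were set by the share of a barcode's UMIs on 14 lists with 84 marker genes, none of them among the 6 genes. A list had to reach its threshold with at least 3 UMIs from at least 2 genes (3 genes for macrophages). The other thresholds were 0.04% for monocyte genes (Csf1r, F13a1, Ccr2, Ms4a6c, Ly86, Klf4), 0.05% for macrophage, 0.5% for stromal, 1% for erythroid and 0.1% for dividing and remaining lineages. The genes and lists were chosen with earlier results of these data known, and the thresholds after the distributions of the marker lists, but not of the 6 genes, had been seen. All 6 genes are named in the text, and other pathway genes are given as counts with the 3 largest changes in each direction.

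Counts were summed per library and gate. HLU and Ctrl sums were compared with edgeR 4.0.16 (R 4.3.3), using the quasi-likelihood test, TMM factors and the filter of filterByExpr. Steps between gates were fitted in the same way with the library as a term, and the interaction in 1 model over the granulocyte and monocyte progenitor gates. The SE given with an edgeR change is the absolute log2 change divided by the square root of the test's F statistic. P-values were adjusted by Benjamini-Hochberg over all genes tested, and a gene was called at an adjusted p under 0.05. The tests of HLU against Ctrl set a difference against the spread between libraries. The steps and the interaction set it against how the difference between gates varied from library to library. Shares of barcodes were compared with exact permutation tests, with Clopper-Pearson 95% intervals that cover counting error only. Alternatives were DESeq2 1.42.0, its size factors in edgeR, no filter, the replicate number as a block, each library left out, the doublet and haemoglobin filters, and gate thresholds doubled or halved. The fits were also run on simulated counts in which no library stood apart, so that run does not cover a case such as HLU replicate 2. Sequences came from NCBI RefSeq (GRCm38.p6), in whose promoter table all 6 genes were found. Age, cage and sequencing batch of the libraries were not used.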

Additional observations from a re-analysis of the deposited data

How the results depend on the processing

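Calls between HLU and Ctrl depended most on single libraries. With all libraries 0 of the 6 genes were called in each gate, and 0 in the interaction, where 0.131% of all genes were called. The number called changed in the fits that left out 1 library each. It was highest without HLU replicate 1, when HLU replicate 2 stood alone in its group. Calls among all genes were then also the most numerous, in the gates and in the interaction. Without the filter on low counts 1 of the 6 genes was called in dividing immature neutrophils, 4 in mature neutrophils and 1 in monocytes. Of all genes, 2.65%, 3.44% and 4.54% were then called in these gates. The replicate numbers of the labels are not stated to pair the mice, and same-numbered libraries deviated together only weakly (correlations from -0.05 in monocytes to 0.29 in monocyte progenitors). With them as a replicate block, 1 of the 6 was called, Fcnb in monocyte progenitors (2.00, adjusted p = 0.0423 in edgeR), and 18 to 227 genes a gate were called in all, in place of 3 to 99. The causes were not tested.

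With 1 library left out, differences ranged as follows (log2, HLU minus Ctrl). In granulocyte progenitors Fcnb ran from -0.031 to 1.52 and Ctsg from -0.36 to 1.58. In late progenitors Fcnb ran from -0.27 to 1.38, Ctsg from -0.69 to 0.96 and Mpo from -1.26 to 0.38. In dividing immature neutrophils Fcnb ran from -0.33 to 1.97 and Elane from -1.35 to 0.13. In non-dividing ones Fcnb ran from -0.48 to 1.40, Elane from -0.81 to 0.16, Ctsg from -0.10 to 0.94 and Mpo from -0.15 to 0.72. In monocyte progenitors Cst7 ran from -0.095 to 0.91, Elane from -0.86 to 0.21, Ctsg from -0.48 to 1.06 and Mpo from -0.54 to 1.13. In monocytes Fcnb ran from -0.69 to 0.27, Prtn3 from -1.12 to 0.15, Elane from -0.14 to 1.28 and Ctsg from -0.32 to 0.62. The interaction ran from -0.59 to 0.50 for Cst7, -0.93 to 0.035 for Prtn3, -0.66 to 0.53 for Elane, -1.01 to 0.080 for Ctsg and -0.56 to 0.55 for Mpo. With thresholds doubled, the difference was -0.61 for Mpo in monocyte progenitors and, in monocytes, 0.21 for Fcnb, -0.13 for Elane and -0.65 for Ctsg. The monocyte progenitor gate then held only 1, 3, 9 and 11 barcodes. With the doublet and haemoglobin filters it was -0.027 for Ctsg in monocytes.

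Among the steps, 5 genes were called between granulocyte and late progenitors with thresholds halved, in place of 3. All genes called at that step were 2879 of 8008, in place of 2285 of 8177. Between dividing and non-dividing immature neutrophils 0 were called without the library term, 5 with thresholds halved and 2 to 4 with 1 library left out, in place of 2. All genes called in these fits were 2190 of 9589, 5595 of 9522 and 4206 to 5001, in place of 5137 of 9589. Between granulocyte and monocyte progenitors 0 were called without the library term, in place of 4. All genes called there were 37 of 8132, in place of 301. The first step of Prtn3 became 0.031 without the filter and 0.25 with thresholds doubled, and ran from -0.13 to 0.086 with 1 library left out. That of Elane became 0.20 with thresholds doubled. Elane between dividing and non-dividing immature neutrophils ran from -0.40 to 0.024, and Cst7 became -0.48 there with thresholds halved. Fcnb between monocyte progenitors and monocytes became 0.10 with thresholds doubled, when only 1, 3, 9 and 11 barcodes were monocyte progenitors. Cst7 between granulocyte and monocyte progenitors became 0.069 with thresholds halved and ran from -0.24 to 0.22. The falls of Elane, Prtn3, Ctsg, Mpo, Cst7 and Fcnb into dividing immature neutrophils kept their direction in all these fits. Shares of granulocyte progenitors with a UMI, as means of 4 libraries, were 74.4% for Mpo, 84.9% for Prtn3, 77.3% for Ctsg, 45.1% for Fcnb and 72.4% for Cst7 without thinning, against 48%, 75.6%, 61.2%, 15.4% and 23.2%.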
